A study of Drosophila melanogaster with 9 samples.

Results

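The nuclear-encoded respiratory chain genes were taken from the expression table by their FlyBase symbols, which begin with ND-, Sdh, UQCR-, COX followed by a digit, or ATPsyn. The rule found 88 genes of 17481 in the table. It used no measured value. By complex, 40 were genes of complex I, 8 of complex II, 9 of complex III, 16 of complex IV and 15 of complex V. Of these, 63 encode a subunit, 24 are duplicated copies of a subunit gene (paralogues, whose symbols end in L or in L and a digit), and Sdhaf3 encodes an assembly factor of complex II.

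The respiratory chain of the inner mitochondrial membrane passes electrons from NADH (complex I) and succinate (complex II) through complex III to oxygen at complex IV. Complexes I, III and IV pump protons, and complex V, the ATP synthase, uses the gradient to make ATP. Apart from complex II, each complex joins nuclear-encoded subunits to a few encoded by mitochondrial DNA. In Drosophila, many subunit genes have a duplicate that is transcribed mainly in the testis, where mitochondria are remodelled during sperm formation.

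RNA was sequenced from GFP-positive cells sorted from the midguts of Drosophila melanogaster of 5 to 7 days. Dl-Gal4, a driver of the intestinal stem cell (ISC), expressed UAS-GFP, and the stock carried a temperature-sensitive Gal80 that held Gal4 back until the flies were moved to 29°C. The 3 groups were control cells (Dl > GFP, labelled wild type), cells with an RNAi hairpin against groucho (*gro-RNAi*), a transcriptional co-repressor, and cells with a hairpin against the receptor Notch (*Notch-RNAi*), with 3 libraries each. Each library pools sorted cells of many midguts and was amplified, so p-values measure the spread between these libraries. A lower level may reflect fewer cells of a type or less RNA per cell, which cannot be told apart in pooled samples.

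Values are FPKM, fragments scaled to transcript length and to the mapped fragments of the library. Differences were tested with limma on log2(FPKM + 0.1) over the 9 libraries and the 11493 genes whose mean reached 0.1 FPKM. A gene was called at a Benjamini-Hochberg adjusted p under 0.05. All 63 subunits, Sdhaf3 and 11 of the 24 paralogues passed the filter. The *Notch-RNAi* libraries were the deepest, with an estimated 16200000 to 18900000 reads against 11200000 to 12600000 in the control and 7720000 to 14000000 in *gro-RNAi*. *N* was at 28.5 to 40.9 FPKM in the control and 9.78 to 16.2 FPKM in *Notch-RNAi* (limma adjusted p = 0.00242). The *gro* level was 15.3 to 27.8 FPKM in the control and 3.69 to 13.8 FPKM in *gro-RNAi*, lower in 3 of 3 libraries, though the limma adjusted p was 0.094. Delta, the Notch ligand that marks ISCs, was at 3.93 to 7.09 FPKM in the control, 25.6 to 69.7 FPKM in *gro-RNAi* and 38.8 to 54.7 FPKM in *Notch-RNAi*, and rose in both RNAi groups (log2 2.72 and 3.00, limma adjusted p = 0.00484 and 0.00106). Its range in each RNAi group lay wholly above the control. Of the 3 ISC markers tested, sna also rose in both (log2 2.64 and 2.27, limma adjusted p = 0.0265 and 0.0174). Sox100B was called in neither (log2 0.76 and 0.26, limma adjusted p = 0.102 and 0.46). The 5 enteroblast markers, of the ISC daughter that becomes an enterocyte, summed to 513 to 700 FPKM in the control, 613 to 837 FPKM in *gro-RNAi* and 163 to 211 FPKM in *Notch-RNAi*. Of these, E(spl)m8-HLH rose in both RNAi groups (log2 4.01 and 2.77, limma adjusted p = 0.00191 and 0.00207), and klu and E(spl)mbeta-HLH fell in *Notch-RNAi* (log2 -2.39 and -1.94, limma adjusted p = 0.00233 and 0.000959). Genes of enteroendocrine cells (EEs) were found in all 9 libraries, and their 13 markers summed to 1439 to 2914 FPKM in the control, 2232 to 5500 FPKM in *gro-RNAi* and 3674 to 4060 FPKM in *Notch-RNAi*. Of these EE markers, 1 rose in *gro-RNAi*, where 6.26% of all genes tested were called higher, and 5 rose and 3 fell in *Notch-RNAi*, where 24.4% were called higher and 4.29% lower. The 17 enterocyte markers, none of them called, summed to 276 to 576 FPKM, 413 to 1554 FPKM and 222 to 1122 FPKM. The part of these cell type differences in the results was not tested.

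The subunit genes were among the most highly expressed genes of the sorted cells. In the control, 54 of 63 lay in the top 10% of the genes tested, and the median subunit had a mean of 277 FPKM. The order followed the complexes. Median control levels were 165 FPKM for the 34 subunits of complex I, 165 FPKM for the 4 of complex II, 336 FPKM for the 6 of complex III, 645 FPKM for the 8 of complex IV and 741 FPKM for the 11 of complex V. Every subunit of complexes II to V was in the top 10%, against 25 of 34 in complex I. The 13 mitochondrially encoded chain genes were listed at 0 in every library, so no comparison of the 2 genomes was possible.

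ATPsynC, which encodes the c-ring of the proton rotor, had the highest level. It reached 2791, 3015 and 2683 FPKM in the control, 3439.9, 4849.8 and 4360.1 FPKM in *gro-RNAi*, and 2649.6, 2547 and 2454 FPKM in *Notch-RNAi*. All 3 *gro-RNAi* libraries lay above the other 6, and the *Notch-RNAi* libraries lay below the control ones. ATPsynbeta, the catalytic subunit of the head, came next in complex V at 1237, 864 and 1035 FPKM in the control, 1098, 1223 and 1039 FPKM in *gro-RNAi*, and 708, 758 and 892 FPKM in *Notch-RNAi*. The highest *Notch-RNAi* library overlapped the lowest control library.

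In complex IV, cytochrome c oxidase, COX7B and COX7A were highest. COX7B was at 702, 1843 and 1294 FPKM in the control, 1257, 1250.1 and 1985 FPKM in *gro-RNAi*, and 1827, 1758 and 1326 FPKM in *Notch-RNAi*, with the 3 groups overlapping. COX7A was at 904, 831 and 1107 FPKM in the control, 1256, 685 and 986 FPKM in *gro-RNAi*, and 1590.0, 1369 and 1445 FPKM in *Notch-RNAi*. Every *Notch-RNAi* library exceeded the other 6, while control and *gro-RNAi* overlapped.

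In complex III, UQCR-14 was at 410.0, 472 and 673 FPKM in the control, 736, 453 and 664 FPKM in *gro-RNAi*, and 797, 741 and 741 FPKM in *Notch-RNAi*. Its *Notch-RNAi* libraries lay above all others. UQCR-11 was at 404, 525 and 545 FPKM in the control, 923, 413 and 705 FPKM in *gro-RNAi*, and 571, 564 and 393 FPKM in *Notch-RNAi*, with the groups overlapping.

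In complex II, SdhC, a membrane anchor, was at 341, 251 and 253 FPKM in the control, 322, 249 and 255 FPKM in *gro-RNAi*, and 264, 312 and 340.3 FPKM in *Notch-RNAi*. SdhA, the flavoprotein that oxidises succinate, was at 248, 146 and 156 FPKM in the control, 202, 229 and 186 FPKM in *gro-RNAi*, and 141, 144 and 158 FPKM in *Notch-RNAi*. Control and *Notch-RNAi* overlapped for both genes. The assembly factor gene Sdhaf3 was at 11.6 to 17.8 FPKM in the control, 13.6 to 24.1 FPKM in *gro-RNAi* and 18.4 to 30.9 FPKM in *Notch-RNAi*, and was called in no comparison.

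In complex I, the highest gene was ND-MLRQ, whose mammalian counterpart has since been assigned to complex IV. It was at 882, 914 and 907 FPKM in the control, 1523, 730.3 and 1387 FPKM in *gro-RNAi*, and 1175, 1027 and 843 FPKM in *Notch-RNAi*. ND-15, an accessory subunit, was at 370.2, 391 and 476 FPKM in the control, 506, 346 and 498 FPKM in *gro-RNAi*, and 572, 414 and 648 FPKM in *Notch-RNAi*. The groups overlapped for both.

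One subunit gene stood far below the rest. ND-B8, a complex I accessory subunit gene, was at 0, 0 and 0.324 FPKM in the control, 0.533, 0 and 0 FPKM in *gro-RNAi*, and 0.633, 0.459 and 0.395 FPKM in *Notch-RNAi*. The next lowest, ND-18, had a control mean of 26.9 FPKM. ND-B8 shares exon sequence with Gs1l on the other strand, which was at 23.1 to 66.4 FPKM, and how reads of the overlap were assigned is not given in the sources used here. In all, 33 of the 63 subunit genes overlap an exon of another gene, 28 of them on the other strand. ND-B8 was left out of the deviations between libraries below.

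Summed over the 63 subunits, the chain reached 20528 to 26969 FPKM in the control, 23719 to 30486 FPKM in *gro-RNAi* and 28228 to 30853 FPKM in *Notch-RNAi*. The group means were 24561 ± 3515, 27652 ± 3515 and 29436 ± 1325 FPKM (SD, n = 3). Control and *gro-RNAi* overlapped, and the *Notch-RNAi* libraries lay above the control ones. As a share of each library's summed FPKM, the subunits held 1.45 to 1.63% in the control, 1.83 to 2.20% in *gro-RNAi* and 2.18 to 2.31% in *Notch-RNAi*. The totals include 1 abundant RNA, lncRNA:CR40469, which held 14.4 to 16.4% of the control, 5.85 to 14.0% of the *gro-RNAi* and 2.23 to 3.91% of the *Notch-RNAi* summed FPKM. Without the 2 genes of highest FPKM, the subunits held 1.79 to 2.00% in the control, 2.02 to 2.49% in *gro-RNAi* and 2.23 to 2.40% in *Notch-RNAi*.

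Libraries of a group differed in a coordinated way. Control replicate 1 was below its group mean for 57 of 62 subunits, with a median deviation of -0.28 on the log2 scale, and *gro-RNAi* replicate 2 was below for 51 of 62, with a median of -0.27. Both deviations were larger for subunits with a longest transcript under 800 nt (-0.41 and -0.36) than for longer ones (-0.15 and -0.11). Genes of 50 to 3000 FPKM showed the same split by length in these libraries, at -0.22 and 0.09 for short and long genes in control replicate 1, and -0.28 and -0.01 in *gro-RNAi* replicate 2. The part of transcript length in the comparisons was not tested. The median coefficient of variation of the subunits was 22.1% in the control, 20.0% in *gro-RNAi* and 10.5% in *Notch-RNAi*, beside 20.4, 17.1 and 11.8% for the 1569 genes of 50 to 3000 FPKM.

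**Figure D1:**
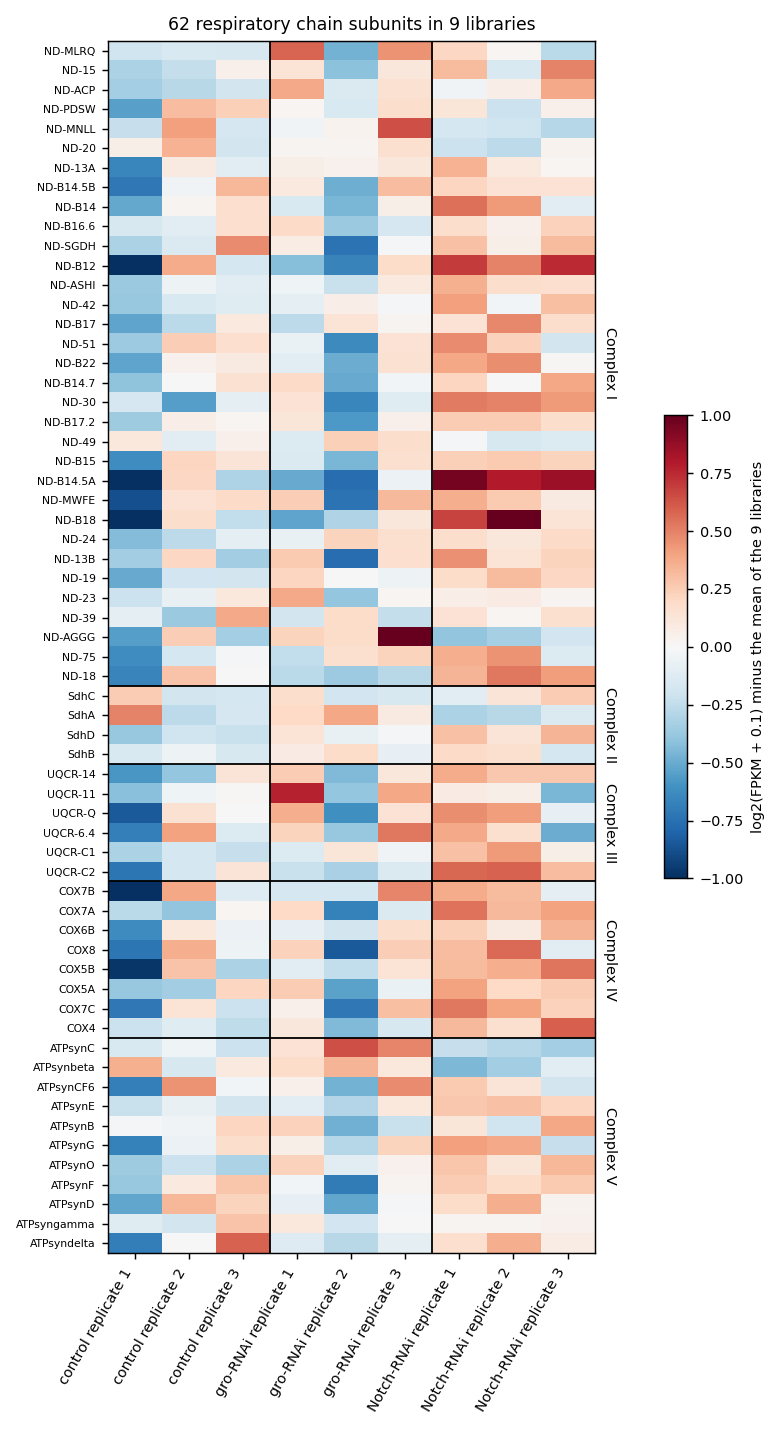
Expression of 62 subunit genes (rows, by complex and falling mean level) in the 9 libraries (columns), as log2(FPKM + 0.1) minus the gene's mean over the libraries; red is above and blue below that mean, and colours saturate at 1 log2 unit. Control replicate 1 and *gro-RNAi* replicate 2 are blue over most rows, and ND-B14.5A is red in all 3 *Notch-RNAi* libraries.

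The first comparison asked whether depletion of *gro* in ISCs changed these genes. No subunit gene was called higher or lower in *gro-RNAi* against control, in a comparison in which 6.26% of the genes tested were called higher and 1.23% lower. The smallest adjusted p among the subunits in limma was 0.074, for ATPsynC, and at an unadjusted p under 0.05 the fit counted 6 subunits higher and 0 lower, beside 20.5 and 4.41% of all genes. The median log2 fold change of the subunits was 0.11, below the 0.27 of all genes tested, and it turned to -0.25 when libraries were centred on the same median and to -0.05 without control replicate 1. By complex, the medians were 0.07 for complex I, 0.19 for complex II, 0.24 for complex III, 0.10 for complex IV and 0.06 for complex V. Subunit changes ran from -0.23 to 0.74, with 45 of 63 above 0, beside 7940 of the 11493 genes tested. In 8 of 63 subunits (12.7%), all *gro-RNAi* libraries exceeded all control libraries, beside 21.5% of the genes tested, and in none of the subunits did all libraries lie lower, beside 4.9%.

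ATPsynC had a fitted log2 difference of 0.56 ± 0.17 (SE) in *gro-RNAi* against control, higher in 3 of 3 libraries, that did not pass (limma adjusted p = 0.074). Over the 11 processing alternatives the limma adjusted p ran from 0.032 to 0.69, and 2 of them called ATPsynC higher. Within complex V, ATPsynC held 27.2 to 33.1% of the summed FPKM in the control, 32.9 to 46.2% in *gro-RNAi* and 25.8 to 26.2% in *Notch-RNAi*. The control and *gro-RNAi* shares overlapped narrowly.

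The second comparison asked the same of *Notch-RNAi*. Here 8 of the 63 subunit genes (12.7%) and 1 paralogue rose and none fell, in a comparison in which 24.4% of all genes tested were called higher and 4.29% lower, so the share of subunits that rose was below that of all genes. At an unadjusted p under 0.05 in limma, 20 subunits were higher and 1 lower, beside 35.1 and 6.59% of all genes. Of the subunits, 55 of 63 had a log2 fold change above 0, beside 8287 of the 11493 genes tested. The median over the subunits was 0.39, beside 0.46 for all genes tested. It was -0.11 when libraries were centred on the same median, 0.08 after quantile normalization and 0.19 without control replicate 1. The median of all genes, which are not matched to the subunits in level, also moved with the setting. It was 0.29 with 1 FPKM added in place of 0.1 and 0.37 with no filter on low values, both below 0.39. All *Notch-RNAi* libraries exceeded all control libraries for 23 of 63 subunits (36.5%), beside 39.0% of the genes tested, and lay below for 1, ATPsynC, beside 8.0%.

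The complexes differed in where they lay against the typical gene. Relative to the all-gene median, the subunit medians were 0.04 for complex III, 0.05 for complex IV and -0.07 for complex I, while complex II was at -0.31 and complex V at -0.28. On the deposited scale these medians were 0.50, 0.51, 0.39, 0.15 and 0.18 in that order. The all-gene median was 0.29 with 1 FPKM added in place of 0.1, below the values given here for complexes III, IV and I. All 8 complex IV subunits and all 6 complex III subunits had a value above 0, beside 8287 of the 11493 genes tested. With libraries centred on the same median, the medians of both complexes came to about 0 (0.00). In complex V, 10 of 11 subunits lay below the all-gene median of 0.46, of which ATPsynE (0.42) and ATPsynG (0.37) were above 0.29.

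**Figure D2:**
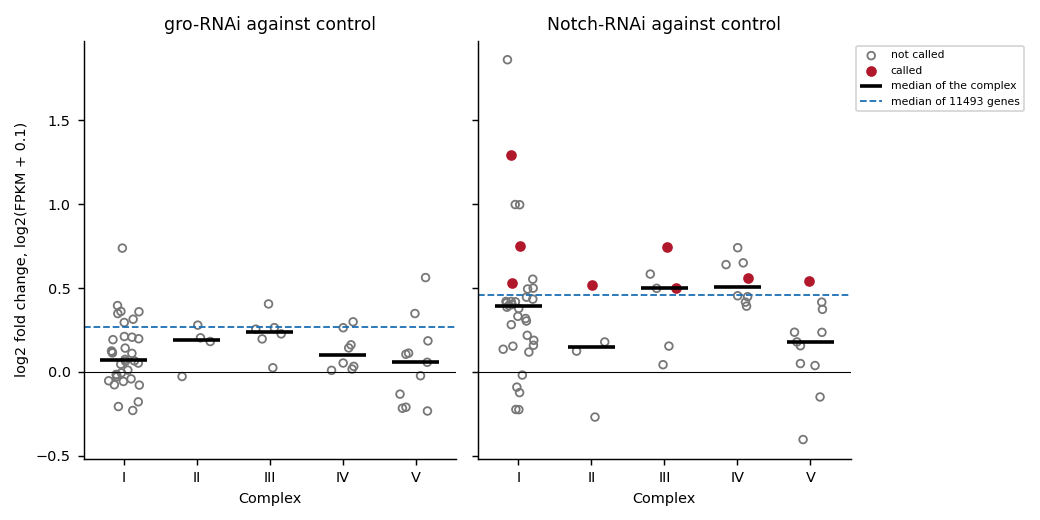
log2 fold changes of the 63 subunit genes by complex, in *gro-RNAi* (left) and *Notch-RNAi* (right) against control; filled points are called genes, bars the complex medians and the dashed line the median of the 11493 genes tested. The complex IV median in *Notch-RNAi* (0.51) is close to the dashed line (0.46), and that of complex V (0.18) lies below it.

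The balance between complexes, over the subunits that the symbol rule found, can be read without scaling between libraries from ratios of summed FPKM within a library. These sums leave out subunits with other symbols, such as levy, cype and sun. The complex IV to complex V ratio was 0.512, 0.717 and 0.632 in the control, 0.654, 0.467 and 0.643 in *gro-RNAi*, and 0.855, 0.837 and 0.828 in *Notch-RNAi*. All 3 *Notch-RNAi* libraries lay above the other 6. The lowest ratios of the control and *gro-RNAi* were those of control replicate 1 and *gro-RNAi* replicate 2, where short genes were low. The part of transcript length in these ratios was not tested. The complex IV to complex I ratio was 0.781 to 0.977 in the control, 0.832 to 0.908 in *gro-RNAi* and 0.993 to 1.05 in *Notch-RNAi*, and that of complex V to complex I was 1.36 to 1.53, 1.34 to 1.78 and 1.18 to 1.25. *Notch-RNAi* lay apart from both other groups in each of these ratios, while control and *gro-RNAi* overlapped. By its symbol, ND-MLRQ is counted in complex I here. Counted in complex IV, it would make the complex IV to complex I ratios of *Notch-RNAi* overlap both other groups. *Notch-RNAi* would stay apart in the ratios with complex V. The ratios of complex III to complex I (0.262 to 0.303, 0.281 to 0.360 and 0.260 to 0.332) overlapped in all groups. The symbol rule used no measured value, but the gene family was chosen for description with earlier results of these data known, so no p is given for these sums, and 3 libraries against 3 could not reach an exact p below 0.1.

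**Figure D3:**
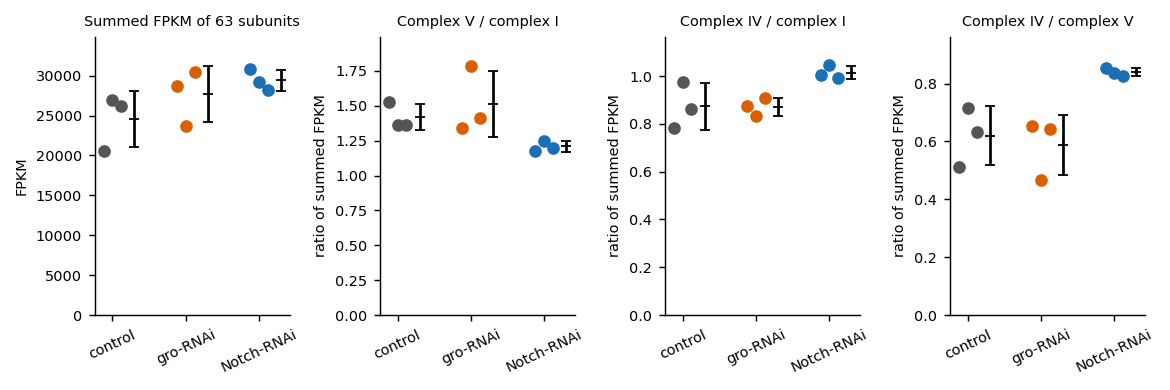
Summed FPKM of the 63 subunits and ratios of summed FPKM between complexes, 1 point per library, with the mean and SD of each group beside the points and all axes starting at 0. The complex IV to complex V ratio is 0.828 to 0.855 in *Notch-RNAi* and at most 0.717 elsewhere.

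In complex I, 3 genes rose in *Notch-RNAi*. ND-B14.5A, an accessory subunit gene on X (2172526 to 2173432, BDGP6, Ensembl release 115), was at 48.7, 128 and 89.2 FPKM in the control, 77.9, 65.1 and 106 FPKM in *gro-RNAi*, and 214, 191 and 199 FPKM in *Notch-RNAi*. The *Notch-RNAi* libraries lay above the other 6, and control and *gro-RNAi* overlapped. The log2 fold change was 1.29 ± 0.32 (SE, limma adjusted p = 0.0178), the largest of the subunits called. ND-B14.5A overlaps Cyp4d14 on the other strand, which was at 0.712 to 4.59 FPKM.

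ND-30, a core subunit of the arm that takes up electrons (3L, 3158485 to 3159578), was at 135, 103 and 141 FPKM in the control, 168, 96.2 and 139 FPKM in *gro-RNAi*, and 216, 213 and 203 FPKM in *Notch-RNAi*, again apart from the other 6. It rose by 0.75 ± 0.21 (limma adjusted p = 0.0285). ND-19, an accessory subunit gene on 2R, was at 62.6, 77.9 and 78.5 FPKM in the control, 103, 89.1 and 86.0 FPKM in *gro-RNAi*, and 101, 111 and 103 FPKM in *Notch-RNAi*, with both RNAi groups above the control. Its log2 fold change was 0.53 ± 0.15 (limma adjusted p = 0.0261).

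In complex III the genes of both core proteins rose. UQCR-C2 (3L, 16584124 to 16586111) was at 84.7, 124 and 153 FPKM in the control, 119.6, 112 and 126 FPKM in *gro-RNAi*, and 208, 210.2 and 173 FPKM in *Notch-RNAi*, and rose by 0.74 ± 0.21 (limma adjusted p = 0.0281). UQCR-C1 (3R, 14890231 to 14892387) was at 118, 129.8 and 125 FPKM in the control, 134, 159.7 and 143 FPKM in *gro-RNAi*, and 179.9, 197 and 153 FPKM in *Notch-RNAi*, and rose by 0.50 ± 0.14 (limma adjusted p = 0.029), a value that came to 0.00 with libraries centred on the same median. For both genes every *Notch-RNAi* library was above every control library, and for UQCR-C1 the *gro-RNAi* and *Notch-RNAi* libraries overlapped.

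In complex II, SdhD, a membrane anchor (3R, 23759483 to 23760600), was at 135, 153 and 150.0 FPKM in the control, 193, 166 and 173 FPKM in *gro-RNAi*, and 215, 192 and 222 FPKM in *Notch-RNAi*. It rose by 0.52 ± 0.13 (limma adjusted p = 0.0183). In complex IV, COX4, a nuclear-encoded subunit (2L, 19958713 to 19960065), was at 491, 523 and 479 FPKM in the control, 616, 419 and 511 FPKM in *gro-RNAi*, and 715, 636 and 863 FPKM in *Notch-RNAi*, and rose by 0.56 ± 0.18 (limma adjusted p = 0.0439). In complex V, ATPsynO, a part of the stalk that holds the head (3R, 15265591 to 15266690), was at 426, 468 and 436 FPKM in the control, 637, 503 and 560.1 FPKM in *gro-RNAi*, and 659, 592 and 684 FPKM in *Notch-RNAi*, and rose by 0.54 ± 0.14 (limma adjusted p = 0.0201). No control library of these 3 genes overlapped *Notch-RNAi*. ND-19, SdhD, UQCR-C1 and ATPsynO fell outside the naming rule and are given because they were called, with their values known.

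Against the all-gene median of 0.46, ND-B14.5A stood 0.83 higher, ND-30 and UQCR-C2 0.29 higher each, and the other 5 between 0.04 and 0.10 higher. With libraries centred on the same median, none of the 8 was called, and ATPsynbeta, ND-20, ND-49 and SdhA were called lower. ATPsynbeta was also the 1 member called lower after quantile normalization. On the deposited scale its log2 difference was -0.40 ± 0.17 (limma adjusted p = 0.11), while COX7A had 0.64 ± 0.22 (limma adjusted p = 0.06) and ATPsynC -0.15 ± 0.17 (limma adjusted p = 0.53). The ATPsynC log2 difference changed sign to 0.070 under quantile normalization and to 0.15 with libraries rescaled to equal totals. The fit called 1 member higher without *Notch-RNAi* replicate 1, 4 without *Notch-RNAi* replicate 2 and 6 without *Notch-RNAi* replicate 3.

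**Figure D4:**
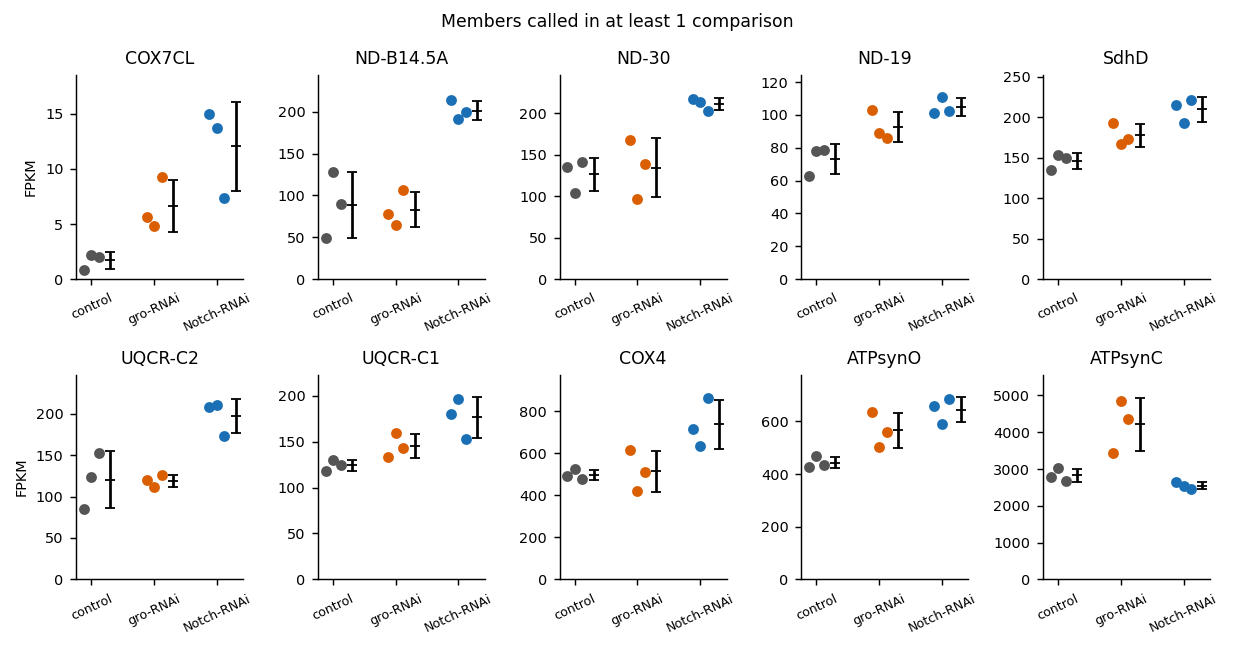
FPKM of the 10 members called in at least 1 comparison, 1 point per library, with the mean and SD of each group (n = 3) and axes starting at 0. ATPsynC is highest in *gro-RNAi*, and the other 9 have all *Notch-RNAi* libraries above the control libraries.

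The third comparison set the RNAi groups against each other. It called 1 subunit higher and 1 lower in *gro-RNAi*, where 2.6% of the genes tested were called higher and 4.86% lower. ATPsynC rose by 0.71 ± 0.17 in *gro-RNAi* against *Notch-RNAi* (limma adjusted p = 0.0362) and ND-B14.5A fell by 1.31 ± 0.32 (limma adjusted p = 0.0422), each in 3 of 3 libraries. The ATPsynC call was lost without control replicate 3, *gro-RNAi* replicate 2 or 3, or any 1 *Notch-RNAi* replicate (limma adjusted p up to 0.134). The ND-B14.5A call was lost without control replicate 3 or any 1 replicate of the RNAi groups (limma adjusted p up to 0.153). Neither was called with libraries centred on the same median. The median over the subunits was -0.27, beside -0.18 for all genes. A value above 0 was found for 0 of 8 complex IV subunits, beside 4315 of the 11493 genes tested. These comparisons share libraries and are not independent.

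The paralogues were far below their parent genes. Of 24, 5 were at 0 in every library, 7 exceeded 1 FPKM in at least 1 library, and 3 had a mean of at least 1 FPKM. None had a mean above 1.0% of its parent's mean, and all 9 paralogues of complexes I and II were below the filter. Their sum was 5.47 to 7.58 FPKM in the control, 13.0 to 18.7 FPKM in *gro-RNAi* and 19.1 to 27.4 FPKM in *Notch-RNAi*, with no overlap between groups. Much of it came from a few genes. COX7CL gave 4.86 to 9.30 FPKM in *gro-RNAi* and 7.40 to 15.0 FPKM in *Notch-RNAi*. UQCR-11L gave 4.84 to 7.49 FPKM in *Notch-RNAi*, and UQCR-6.4L gave 5.39 FPKM in *gro-RNAi* replicate 1. Of the 11 paralogues tested, 1 was called in each RNAi group against control, so the sums do not show a rise of the paralogues as a class. COX7CL had the highest mean of the paralogues in both RNAi groups, and ATPsynepsilonL in the control (1.87 FPKM, against 1.69 FPKM for COX7CL).

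COX7CL, the copy of the complex IV gene COX7C, was the one member that rose in both RNAi groups. It was at 0.834, 2.22 and 2.02 FPKM in the control, 5.65, 4.86 and 9.30 FPKM in *gro-RNAi*, and 15.0, 13.7 and 7.40 FPKM in *Notch-RNAi*. Both RNAi groups lay above the control and overlapped each other. The log2 fold change was 1.96 ± 0.43 in *gro-RNAi* (limma adjusted p = 0.0294) and 2.80 ± 0.43 in *Notch-RNAi* (limma adjusted p = 0.00252), and between the RNAi groups -0.85 ± 0.43 (limma adjusted p = 0.25). These levels correspond to an estimated 3.8 to 11.5 reads in the control, 15.4 to 38.1 in *gro-RNAi* and 57.3 to 108 in *Notch-RNAi*. The *Notch-RNAi* call held in all 11 alternatives and all 9 fits with 1 library left out, and the *gro-RNAi* call in 6 of 11 and 3 of 9.

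COX7CL lies 281 nt after the end of COX7C on the same strand of 2R and overlaps sel on the other strand. COX7C itself was at 396 to 718 FPKM in the control, 397 to 805 FPKM in *gro-RNAi* and 765 to 942 FPKM in *Notch-RNAi*. As a percentage of COX7C, COX7CL was at 0.211, 0.309 and 0.36 in the control, 0.838, 1.22 and 1.16 in *gro-RNAi*, and 1.59, 1.6 and 0.967 in *Notch-RNAi*, so the ratio to the neighbouring parent separated the control from both RNAi groups as well. The overlapping sel was at 21.7 to 54.4 FPKM in the control, 29.1 to 55.7 FPKM in *gro-RNAi* and 29.8 to 32.8 FPKM in *Notch-RNAi*, with all groups overlapping.

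UQCR-11L was at 0.941, 2.09 and 0.455 FPKM in the control, 0, 2.06 and 2.10 FPKM in *gro-RNAi*, and 5.94, 4.84 and 7.49 FPKM in *Notch-RNAi*. Its *Notch-RNAi* libraries lay above the other 6, but the log2 difference from control of 2.49 ± 1.08 did not pass (limma adjusted p = 0.112, and 0.0194 to 0.30 over the alternatives). ATPsynepsilonL was at 2.72, 1.38 and 1.51 FPKM in the control, 2.49, 3.98 and 5.22 FPKM in *gro-RNAi*, and 3.20, 0.536 and 2.31 FPKM in *Notch-RNAi*, with the groups overlapping.

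The other 8 paralogues that passed the filter had means under 1 FPKM, with an estimated 0 to 34.7 reads per library. ATPsynbetaL was at 0.508, 0 and 0.0894 FPKM in the control, 0.478, 0.673 and 0.309 FPKM in *gro-RNAi*, and 0.583, 1.01 and 0.491 FPKM in *Notch-RNAi*. COX4L was at 0.367, 0 and 0.356 FPKM in the control, 0.579, 0.535 and 0.205 FPKM in *gro-RNAi*, and 0.574, 0.883 and 0.326 FPKM in *Notch-RNAi*. COX7AL was at 0.445, 0.789 and 0.862 FPKM in the control, 1.06, 0.324 and 0.248 FPKM in *gro-RNAi*, and 0.562, 1.07 and 0.658 FPKM in *Notch-RNAi*. None of these 3 separated the groups.

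COX6AL was at 0.508, 0 and 0 FPKM in the control, 0, 0.370 and 0.283 FPKM in *gro-RNAi*, and 0.641, 0.697 and 0 FPKM in *Notch-RNAi*. COX7AL2 was at 0.919, 0.114 and 0 FPKM in the control, 0 in *gro-RNAi*, and 0, 0.631 and 0.227 FPKM in *Notch-RNAi*. COX6CL was at 0.800 and 0.217 FPKM in *Notch-RNAi* replicates 1 and 2 and at 0 elsewhere. For all 3, at least 1 *Notch-RNAi* library was at 0. UQCR-6.4L and COX5BL each took most of their signal from 1 or 2 libraries. UQCR-6.4L was at 5.39 FPKM in *gro-RNAi* replicate 1, 0.334 FPKM in control replicate 2, 0.258 FPKM in *Notch-RNAi* replicate 2 and 0 elsewhere. COX5BL was at 3.31 FPKM in *Notch-RNAi* replicate 2, 1.04 FPKM in *gro-RNAi* replicate 3 and 0.207 FPKM in control replicate 1, and under 0.01 FPKM elsewhere.

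**Figure D5:**
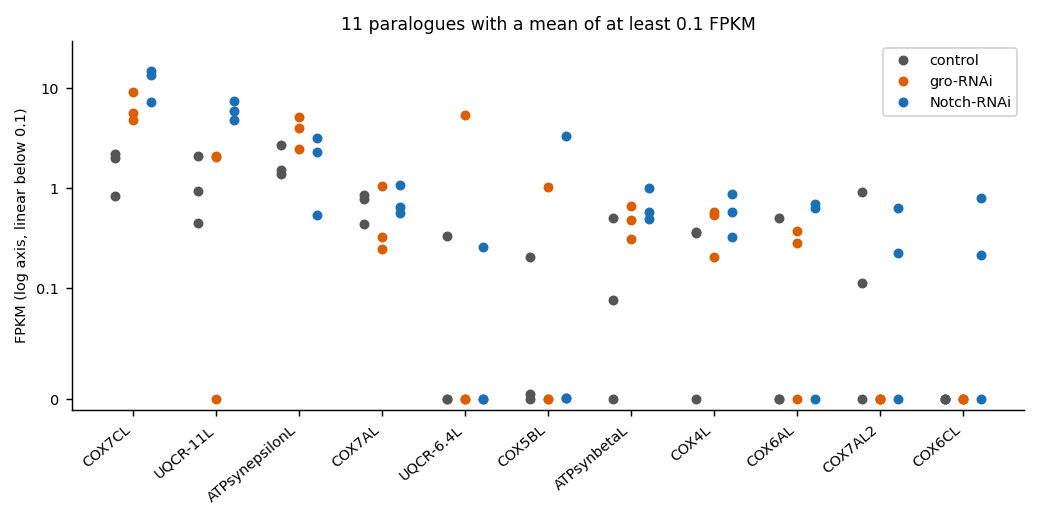
FPKM of the 11 paralogues that passed the filter, 1 point per library, on a log axis that is linear below 0.1 FPKM. COX7CL separates the control (0.834 to 2.22 FPKM) from both RNAi groups, and the other 8 paralogues right of ATPsynepsilonL stay below 1.1 FPKM apart from 1 library each of UQCR-6.4L and COX5BL.

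Since such copies are known from the testis, 19 testis genes were measured beside them. They summed to 2.11 to 5.83 FPKM in the control, 3.52 to 5.20 FPKM in *gro-RNAi* and 8.31 to 16.8 FPKM in *Notch-RNAi*. Without S-Lap1 the sums were 2.11 to 5.75 FPKM, 3.37 to 5.16 FPKM and 3.73 to 5.70 FPKM, and the 3 groups overlapped. Of the 7 that passed the filter, 1 rose in *Notch-RNAi*, where 24.4% of all genes tested were called higher. Their median log2 fold change there was 0.45, beside 0.46 for all genes tested. The gene that rose was S-Lap1, a leucyl aminopeptidase of sperm, from 0 to 0.0854 FPKM in the control to 11.1, 8.99 and 4.59 FPKM (log2 5.82, limma adjusted p = 0.000198). The sperm chromatin genes ProtA and ProtB were at 0 in 8 of the 9 libraries each and at 0.133 and 0.123 FPKM in *Notch-RNAi* replicate 2. The part of testis-type transcription in the COX7CL result was not tested.

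Related mitochondrial genes outside the symbol rule were read for context, beside the 6.26% of all genes tested that were called higher in *gro-RNAi* and the 24.4% in *Notch-RNAi*. Of 9 further chain genes (among them levy, cype and sun, which encode subunits of complexes IV and V, and RFeSP and Cyt-c1 of complex III), none was called by limma in either comparison with control (at an unadjusted p under 0.05, 2 were higher in *gro-RNAi* and 0 in *Notch-RNAi*), and their median log2 changes were 0.21 in *gro-RNAi* and 0.38 in *Notch-RNAi*. These 9 chain genes and their medians include Cyt-c1L and Cyt-c-d, whose group means were at most 0.23 FPKM. Of 9 genes listed as assembly factors, 1 rose in *gro-RNAi* and 3 in *Notch-RNAi*. Bcs1, which acts in complex III assembly in yeast, rose in both (log2 0.74 and 1.08, limma adjusted p = 0.0427 and 0.00368), and Coa8, a complex IV assembly factor, rose in *Notch-RNAi* (0.55, limma adjusted p = 0.0256). The other gene that rose there, ttm2 (2.30, limma adjusted p = 0.0023, from 0.911 to 4.84 FPKM), belongs to the family of the mitochondrial import subunit TIM50. Of 16 genes of mitochondrial DNA upkeep and biogenesis, 1 rose in *gro-RNAi* and 7 in *Notch-RNAi*, with the largest changes in PolG1, the catalytic subunit of the mitochondrial DNA polymerase (1.20 in *gro-RNAi* and 1.68 in *Notch-RNAi*, limma adjusted p = 0.0411 and 0.0043), and PolG2, its accessory subunit (1.25 in *Notch-RNAi*, limma adjusted p = 0.00327). Of 11 citric acid cycle genes, 1 rose in *gro-RNAi*, the citrate synthase kdn (0.69, limma adjusted p = 0.0454), and 2 rose in *Notch-RNAi*, Idh3b (0.91, limma adjusted p = 0.0283) and ScsbetaG (0.81, limma adjusted p = 0.0214). The citric acid cycle median in *Notch-RNAi* was -0.02, beside 0.46 for all genes.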

How the data were processed

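RNA-seq libraries of sorted Dl > GFP+ midgut cells were analysed, 3 each for control, *gro-RNAi* and *Notch-RNAi*, grouped by the sample labels. The authors deposited 1 table of FPKM values per gene. The submitters' processing notes name STAR 2.5.2b and the BDGP6 genome; the tool that gave FPKM and its annotation are not given in the sources used here. Genes were matched to symbols in Ensembl release 115 (17175 of 17481). limma 3.58.1 (R 4.3.3, lmFit, contrasts and eBayes with trend, two-sided) was fitted to log2(FPKM + 0.1), a scale that understates the change of low genes, for the 11493 genes whose mean reached 0.1 FPKM, with p-values adjusted over all of them; the code was tested on simulated data. Depth was estimated from the spacing of low FPKM values and carries that uncertainty. No 2 of the 36 library pairs were identical. The labels give no batch. Values in every library were given for the 2 highest genes of each complex, the largest called changes and the paralogues tested. Members and gene lists were chosen with earlier results of these data known. Of the gene lists, 23 symbols found no row. Alternatives changed the pseudocount, filter, scaling, libraries in the fit, variance prior and replicate block. Sequences and promoter motifs were not analysed here.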

Additional observations from a re-analysis of the deposited data

How the results depend on the processing

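For *gro-RNAi* against control, the 1 member called higher became 3 with libraries rescaled to equal totals, and 0 with no filter on low values, with libraries centred on the same median, with only the 6 libraries compared and with the replicate block; the subunit median was -0.25 with centring. For *Notch-RNAi* against control, the 9 called higher became 36 with rescaling, 1 with centring, 1 with quantile normalization and 4 with one prior variance, while 4 were called lower with centring and 1 with quantile normalization. The subunit median was then -0.11 (centring), 0.080 (quantile normalization) and 0.69 (rescaling). For *gro-RNAi* against *Notch-RNAi*, the 1 called higher became 0 with no filter, centring, rescaling, only the 6 libraries, one prior variance and the replicate block. The 1 called lower became 0 with no filter, centring, quantile normalization, one prior variance and the replicate block, 2 with rescaling and 3 with only the 6 libraries. With the replicate block, 7 members were called higher in *Notch-RNAi*. Deviations of same-numbered libraries had correlations from -0.05 to 0.07, beside -0.09 to 0.12 for differently numbered ones. With 3 libraries a group and no batch in the labels, these values cannot settle whether the numbers pair the libraries. The cause of these changes was not tested.

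Leaving out 1 library in turn gave 0 to 1 members called higher in *gro-RNAi* and 1 to 13 in *Notch-RNAi* against control, and 0 to 1 higher and 0 to 4 lower in *gro-RNAi* against *Notch-RNAi*. In *Notch-RNAi* against control, ATPsynC changed sign to 0.070 (quantile normalization) and 0.15 (rescaling), and UQCR-C1 to -0.00 with centring (-0.0022). Rescaling to equal totals without the 2 highest genes was chosen after seeing the data and called 1 and 13 members higher in *gro-RNAi* and *Notch-RNAi* against control. COX7CL in *Notch-RNAi* kept its call in every alternative. The estimated depth limits the paralogues, most of which rest on a few reads.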
